A study of Caenorhabditis elegans with 15 samples.

Results

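The comparison of L4-lethargus with L4 in Caenorhabditis elegans used 10 of the 15 arrays of the series, 5 per stage, and was read across all 22548 probe sets other than the manufacturer's controls. These stand for 17118 named genes, with the probe set of highest mean over the 15 arrays taken for each gene. The genes were arranged in 71 lists by function or family, and most weight was given to lists other than collagens, yolk and oocyte genes. Moderate differences in well-expressed genes were also described.

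All animals were N2 Bristol wild-type hermaphrodites, synchronised by arrest as starved L1 larvae, fed the bacterial strain DA837 and grown at 20 °C. L4 animals were late in the fourth larval stage, 42 h after feeding, and were moving and feeding. Lethargus animals were taken at 45 to 50 h, 30 to 40 min after the pharynx had stopped pumping, so that age, stopped feeding, molt and quiescence cannot be told apart. Animals were picked by hand at 22.5 °C in batches of 20, the RNA yields given were 22.3 ± 7.0 ng for L4 and 18.6 ± 3.5 ng for lethargus, and the RNA was amplified before hybridisation. The remaining 5 arrays, of Adult animals, entered the fit through the shared spread alone.

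Lethargus is a period of quiescence that accompanies each larval molt, when the worm stops feeding and moving. In the same hours the epidermis detaches from the old cuticle and secretes a new one, the pharyngeal lining is replaced, and the last of these periods separates the larva from the adult. In an L4 hermaphrodite the germ line finishes making sperm and turns to oocytes, so that germline transcripts also depend on the hour.

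Levels are the deposited log2 intensities, differences are lethargus minus L4 on the log2 scale, and errors are SDs over 5 arrays. A gene was called where limma gave an adjusted p of at most 0.05. By this rule 2733 genes rose (16.0% of 17118) and 2673 fell (15.6%), and for 4647 genes (27.1%) the 5 arrays of a stage did not overlap the 5 of the other. The median difference of all genes was 0.00. Arrays correlated at 0.983 to 0.997 within a stage and at 0.927 to 0.963 between the stages. Lethargus replicate 1 correlated least with its own stage (mean 0.988) and, of the lethargus arrays, most with L4 (mean 0.952), and some counts without it are given beside the results. Among the L4 arrays, replicates 2 and 3 correlated least with their own stage (mean 0.989 each), and replicate 3 most with lethargus (mean 0.951). The 3' minus 5' difference of the ubiquitin control, a sign of RNA quality, was 4.55 to 4.81 in L4 and 4.20 to 4.51 in lethargus, without overlap, while the ranges of the actin, Gapdh and catalase controls overlapped. The part of this difference in the results below was not tested. Bright genes lay slightly lower in lethargus, with a median of -0.10 over the 483 genes with a mean of 12 or more, and -0.01 there after cyclic loess. For most bright lists with small falls, counts under other scalings are given. The number of arrays limits precision, and the labels do not say whether the pools came from separate cultures, so that p-values cover no more than the variation from pool to pool. In RNA from whole animals, fewer cells of a type and less RNA per cell cannot be told apart.

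**Figure D1:**
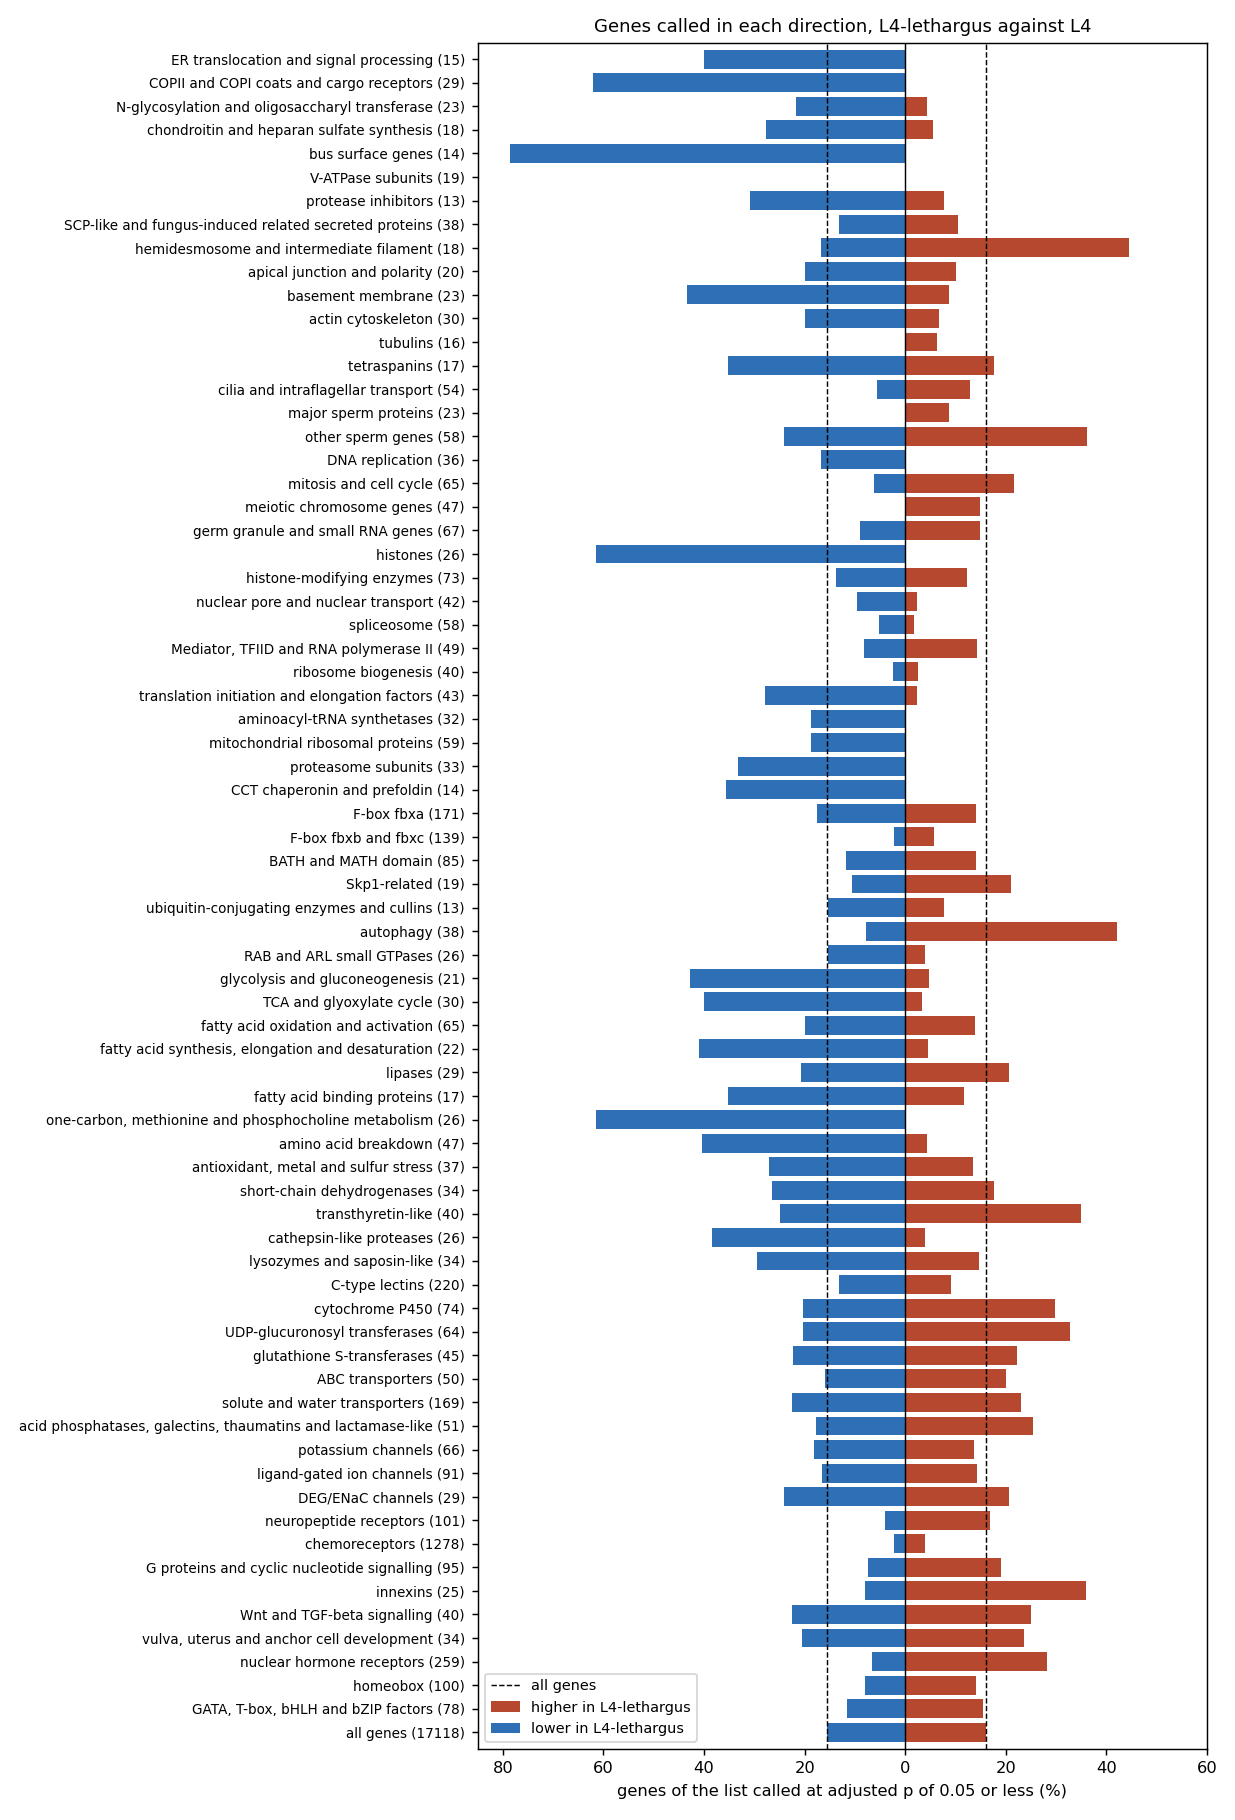
Share of each gene list (number of measured genes in brackets, lists of 12 or more) called higher (red) or lower (blue) in lethargus than in L4 by limma (adjusted p of at most 0.05), in percent. Dashed lines mark the shares over all genes, 16.0% and 15.6%; the blue bars of the bus genes, the COPII and COPI coats, the histones and one-carbon metabolism pass 60%, while the V-ATPase subunits have no bar.

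Genes of the COPII and COPI coats and cargo receptors of the early secretory pathway fell in lethargus. Proteins bound for the cuticle and the cell surface enter the endoplasmic reticulum, have their signal peptide removed and travel in COPII and COPI vesicles to and from the Golgi. Of 29 measured coat and cargo receptor genes, 0 rose by limma (0 at an unadjusted p of 0.05 or less) and 18 fell (62.1%), with a median difference of -0.36. The falls were small. The level of erd-2.1, a receptor that returns escaped proteins to the endoplasmic reticulum, was 11.75, 11.61, 11.39, 11.67 and 11.59 in L4 and 11.07, 10.94, 10.84, 10.72 and 10.86 in lethargus. Every lethargus array lay below every L4 array, a 1.65-fold fall (adjusted p = 2.42e-05). The Golgi SNARE gene memb-1 fell 1.73-fold (adjusted p = 0.000317), the COPI subunit gene cope-1 1.55-fold (adjusted p = 0.000557) and the p24 cargo receptor gene tmed-1 1.47-fold (adjusted p = 0.000404). For each of these genes the stages did not overlap. The count of falls was 15 after cyclic loess and 8 after scaling to the hybridisation controls.

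Several genes of signal peptide processing also fell. Of 15 genes of translocation and signal processing, 0 rose (0 unadjusted) and 6 fell (median -0.22). Their falls numbered 8 after median-centring, 4 after cyclic loess and 4 with the hybridisation controls as scale. Of the signal peptidase genes, spcs-1 read 11.62, 11.51, 11.38, 11.63 and 11.59 in L4 and 11.11, 11.07, 10.97, 10.61 and 10.44 in lethargus. Its stages did not overlap and it fell 1.63-fold (adjusted p = 0.00037). spcs-3 fell 1.4-fold, the catalytic subunit gene sec-11 fell 1.3-fold, and srpa-72, of the signal recognition particle, fell 1.41-fold. In N-glycosylation, where a glycan is attached and then trimmed and extended, 1 of 23 genes rose and 5 fell (21.7%, against 15.6% of all genes, median -0.14). Its falls included gly-12, which encodes an N-acetylglucosaminyltransferase (1.67-fold, adjusted p = 0.000344), the oligosaccharyl transferase gene ostd-1 (1.43-fold) and the chaperone calnexin, cnx-1 (1.24-fold, not called with the hybridisation controls as scale).

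The bus genes fell by larger folds. They are named for mutants that do not swell when infected by Microbacterium nematophilum, and several encode enzymes or transporters that shape surface glycans. Of 14 measured, 0 rose (0 unadjusted) and 11 fell, with a median difference of -2.50. bus-1 read 10.62, 10.12, 9.31, 9.99 and 9.90 in L4 and 5.92, 6.32, 6.09, 5.96 and 6.41 in lethargus. Every L4 array stood far above every lethargus array, and the fall was 14.4-fold (adjusted p = 1.96e-10). bus-12, which encodes a nucleotide-sugar transporter, read 7.91, 7.83, 7.48, 8.14 and 8.13 in L4 and 5.004, 4.29, 3.81, 3.61 and 4.16 in lethargus, so that lethargus was not above background, and it fell at least 5.04-fold (adjusted p = 7.16e-10). bus-22 fell at least 7.02-fold (adjusted p = 4.57e-08), and bus-5 differed by -3.40 (adjusted p = 0.000468). Without lethargus replicate 1, 12 of the bus genes fell.

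The enzymes of chondroitin and heparan sulfate, the sugar chains of proteoglycans, did not share this pattern. Of 18 genes 1 rose and 5 fell (median -0.02). The gene that rose was sqv-1, which makes the UDP-xylose on which each chain starts, and it read 8.89, 8.66, 9.37, 9.02 and 8.80 in L4 and 10.11, 10.49, 10.43, 10.45 and 10.65 in lethargus. The arrays did not overlap and the rise was 2.79-fold (adjusted p = 2.48e-07). The transporters of the sulfate donor, pst-1 and pst-2, fell 1.46-fold and 1.41-fold, and the heparan sulfotransferase gene hst-3.1 fell 1.55-fold. Of the 6 epidermal markers 3 fell and 0 rose (0 higher at an unadjusted p of 0.05 or less). Their summed level was 11.24 to 11.82 in L4 and 10.87 to 11.16 in lethargus, and their median difference was -0.37. A summed level is the log2 of the summed unlogged intensities, so that the brightest markers weigh most. Of the 6 measured markers of the seam cells, the other main epidermal cell type, 2 fell and 0 rose (0 higher unadjusted). The summed level of the seam markers was 11.02 to 12.95 in L4 and 8.98 to 11.19 in lethargus, and their median difference was -0.23. The part of both cell types in the falls above was not tested.

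Genes of hemidesmosomes and intermediate filaments moved in both directions. Fibrous organelles, which resemble hemidesmosomes, carry the pull of the muscle through the epidermis on intermediate filaments. Of 18 hemidesmosome and intermediate filament genes, not divided by tissue, 8 rose, 3 fell and 7 were not called (median 0.18). The intermediate filament gene ifa-4 read 7.86, 7.84, 7.76, 8.17 and 7.90 in L4 and 9.07, 9.53, 9.64, 9.57 and 9.55 in lethargus and rose 2.96-fold (adjusted p = 3.71e-08). ifd-1, of the same family, rose 2.23-fold (adjusted p = 9.57e-07), and the transmembrane attachment gene mup-4 differed by 1.82 (adjusted p = 0.00916). mua-6, an epidermal filament gene, went the other way and read 12.16, 11.65, 11.77, 12.10 and 12.13 in L4 and 11.01, 10.84, 10.98, 10.76 and 11.03 in lethargus. Its stages did not overlap and it fell 2.06-fold (adjusted p = 7.74e-07). For mua-3, a receptor for the apical matrix, the probe sets disagreed in sign: the brighter one fell by 1.33, while the one without shared probes was higher by 0.71, so no direction is read.

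More basement membrane genes fell than rose. Of 23 genes 2 rose and 10 fell (median -0.36). fbl-1, which encodes fibulin, was one of the rises and read 9.03, 8.53, 8.23, 8.23 and 8.69 in L4 and 11.15, 11.19, 11.09, 10.79 and 10.87 in lethargus. All lethargus arrays were above all L4 arrays, 5.55-fold (adjusted p = 1.35e-08), and its second probe set differed by 0.55. The laminin gene lam-3 fell at least 1.96-fold (adjusted p = 2.02e-07), the ADAMTS protease gene mig-17 1.85-fold (adjusted p = 0.000438) and the spondin gene spon-1 1.51-fold. Of the apical junction and polarity genes, 2 of 20 rose (10.0%) and 4 fell (20.0%), against 16.0% and 15.6% of all genes. Among them par-3 rose 1.43-fold (not called without probe sets that share probes) and the p120 catenin gene jac-1 fell 1.58-fold.

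Genes of one-carbon, methionine and phosphocholine metabolism fell. These enzymes supply methyl groups, the thymidine nucleotide for DNA and the head group of phosphatidylcholine. Of 26 genes 0 rose (0 unadjusted) and 16 fell (61.5%), with a median of -0.33. The thymidylate synthase gene tyms-1 read 10.26, 10.46, 10.25, 10.45 and 10.36 in L4 and 9.04, 9.13, 8.93, 9.08 and 9.10 in lethargus. The arrays lay in tight sets without overlap, and the fall was 2.46-fold (adjusted p = 1.74e-08). Outside the list, pcyt-1, for the enzyme that commits choline to phosphatidylcholine, is named for its place among the moderate falls. It read 10.49, 10.38, 10.35, 10.40 and 10.60 in L4 and 9.39, 9.17, 8.67, 8.98 and 9.26 in lethargus and fell 2.55-fold (adjusted p = 5.72e-07). The cysteine synthase-like genes cysl-2 and cysl-3 fell 2.58-fold and 2.41-fold, and cbs-2, for a cystathionine beta-synthase, fell 1.83-fold. After scaling to the hybridisation controls 10 genes fell.

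Many genes for enzymes of amino acid breakdown fell as well. Of 47 genes 2 rose and 19 fell (median -0.20), and 12 fell with the hybridisation controls as scale. Some genes of these routes were not among those counted, and are named for their place among the moderate falls. One of them, uroc-1, for the urocanate hydratase of histidine breakdown, read 11.47, 11.59, 11.35, 11.86 and 11.83 in L4 and 10.19, 10.16, 9.77, 9.97 and 10.31 in lethargus. The lowest L4 array lay above the highest lethargus array, and the fall was 2.91-fold (adjusted p = 4.45e-08). In tyrosine breakdown hpd-1 fell 1.8-fold (adjusted p = 8.85e-07) and gst-42, for maleylacetoacetate isomerase, 2.16-fold (adjusted p = 6.63e-07). In the kynurenine route from tryptophan, haao-1 fell 2.81-fold (adjusted p = 4.21e-05). The arylformamidase genes of that route parted, since afmd-2, not among those counted, fell 2.75-fold (adjusted p = 4.05e-08) and afmd-1 rose 3.36-fold (adjusted p = 5.00e-09). The other rise in the list was the glutaminase gene glna-2 (2.05-fold). The sulfite oxidase gene suox-1, the last step of sulfur amino acid breakdown and also not among those counted, fell 1.67-fold (adjusted p = 8.85e-07).

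More genes of central carbon metabolism fell than rose, with 1 rise in each list. In glycolysis and gluconeogenesis 9 of 21 genes fell (median -0.19, and 8 with the hybridisation controls as scale), and in the TCA and glyoxylate cycles 12 of 30 fell (median -0.24). The rise in glycolysis was hxk-1, a hexokinase gene that read 8.31, 8.995, 9.28, 8.68 and 8.61 in L4 and 10.26, 10.25, 10.18, 10.18 and 10.18 in lethargus. The lethargus arrays lay above all L4 arrays, a rise of 2.7-fold (adjusted p = 3.94e-07). Lethargus replicates 3, 4 and 5 held the identical value of 10.1828, so the small spread of that stage is not read as close agreement. Against it stood falls of the phosphofructokinase gene pfk-1.2 (1.9-fold), pck-1, for phosphoenolpyruvate carboxykinase (1.51-fold), and the lactate dehydrogenase gene ldh-1 (1.48-fold). The isocitrate dehydrogenase gene idh-2 read 11.56, 11.34, 11.197, 11.48 and 11.56 in L4 and 10.70, 10.23, 10.09, 9.87 and 10.10 in lethargus and fell 2.34-fold (adjusted p = 5.86e-06). The aconitase gene aco-1 fell 1.76-fold, while icl-1, the glyoxylate cycle enzyme, rose 1.57-fold. In the TCA list 6 genes fell after scaling to the hybridisation controls.

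Lipid genes changed in both directions. Of the fatty acid synthesis, elongation and desaturation genes, 1 of 22 rose and 9 fell (median -0.20). The elongase gene elo-4 fell 6.42-fold (adjusted p = 2.34e-08) and the delta-6 desaturase gene fat-3 1.94-fold (adjusted p = 0.000233). Of 65 oxidation and activation genes 9 rose (13.8%, against 16.0% of all genes) and 13 fell (20.0%, against 15.6%). acs-2, an acyl-CoA synthetase gene known to rise in starved worms, read 6.53, 7.16, 6.63, 6.40 and 6.86 in L4 and 7.88, 8.70, 8.98, 10.07 and 8.99 in lethargus, and was higher on every lethargus array, 4.62-fold (adjusted p = 4.10e-05). The carnitine palmitoyltransferase gene cpt-6 read 9.48, 9.26, 8.88, 9.35 and 9.45 in L4 and 6.56, 6.48, 5.99, 6.14 and 6.37 in lethargus and fell 7.86-fold (adjusted p = 9.83e-11). The peroxisomal oxidase gene acox-1.2 fell 5.92-fold (adjusted p = 2.24e-09).

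Lipases divided evenly, with 6 of 29 up and 6 down. lips-17 read 4.62, 4.13, 4.46, 5.09 and 5.09 in L4 and 10.52, 10.72, 11.0004, 10.94 and 10.96 in lethargus. It was not above background in L4 and rose at least 38.4-fold (adjusted p = 2.30e-13). lipl-2 rose 3.02-fold, while lipl-6 fell at least 8.08-fold and the hormone-sensitive lipase gene hosl-1 fell 2.37-fold. In the list of fatty acid binding proteins 2 of 17 genes rose and 6 fell. The intracellular carriers lbp-5 and lbp-7 rose 2.17-fold and 1.92-fold, and the secreted carriers far-5 and far-7 fell at least 2.13-fold and 2.45-fold. The summed level of the intestinal markers, the tissue where many of these enzymes act, was 15.26 to 15.39 in L4 and 15.24 to 15.38 in lethargus, with 2 of 10 up and 2 down.

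**Figure D2:**
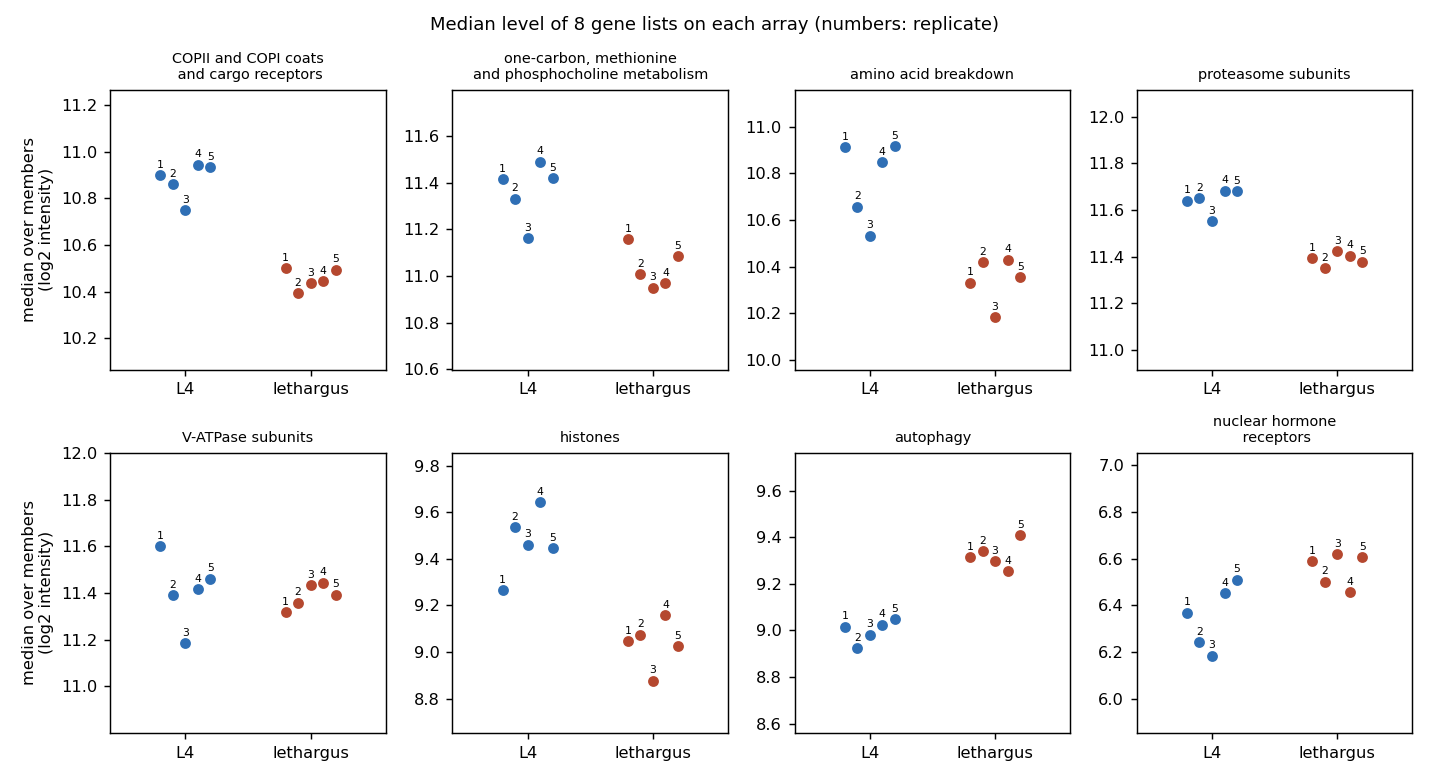
Median level of the members of 8 gene lists (log2 intensity) on each L4 (blue) and lethargus (red) array, with the replicate number above each point. The stages do not overlap for the coat and cargo receptors, amino acid breakdown, proteasome, histones and autophagy; they touch or overlap for the other 3, and the V-ATPase medians of lethargus lie within the range of the L4 ones.

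In several lists of protein synthesis and folding the number of falls depended on the scaling, and the share over all genes was 15.6%. Of 43 translation factor genes 1 rose and 12 fell (median -0.18). The count of falls was 19 after median-centring and 5 after scaling to the hybridisation controls. The eIF4E genes ife-5 and ife-2 fell 1.52-fold (adjusted p = 0.000658) and 1.45-fold (adjusted p = 0.00966), and ife-2 was not called with the hybridisation controls as scale. Of 32 aminoacyl-tRNA synthetase genes 0 rose (1 unadjusted) and 6 fell (18.8%, or 3 genes with the hybridisation controls as scale), among them pars-1, which charges the proline tRNA (1.48-fold, adjusted p = 0.00269). Of 59 mitochondrial ribosomal protein genes 11 fell (18.6%), or 17 after median-centring, 2 with the hybridisation controls as scale and 5 without L4 replicate 1, 6 without lethargus replicate 3, 7 without L4 replicate 4 or lethargus replicate 1, and 20 without Adult replicate 2. Of the 14 genes of the CCT chaperonin and prefoldin, which fold actin and tubulin, 5 fell, or 2 after cyclic loess and 1 with the hybridisation controls as scale, with cct-3 down 1.52-fold (adjusted p = 0.00284). Ribosome biogenesis had 1 rise and 1 fall in 40 genes, and the spliceosome 1 and 3 in 58.

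Of the degradation routes, the proteasome list held falls alone, in a number that depended on the scaling, and the autophagy list held more rises than falls. The proteasome degrades ubiquitin-tagged proteins, and 0 of its 33 subunit genes rose (0 unadjusted) and 11 fell (median -0.20). The falls numbered 20 after median-centring, 6 after cyclic loess and 3 with the hybridisation controls as scale, and they were 7 without lethargus replicate 2 and 19 without Adult replicate 2. The subunit gene rpn-12 read 11.29, 11.29, 11.42, 11.43 and 11.31 in L4 and 10.79, 10.93, 10.86, 10.96 and 10.95 in lethargus, and fell 1.36-fold (adjusted p = 0.000198) without overlap. Autophagy carries cytoplasm to the lysosome. In its list, which is broader than the genes named atg, 16 of 38 genes rose (42.1%) and 3 fell, with a median of 0.25. The largest difference in the list, 1.88, was that of a scavenger receptor gene that was not above background in L4. Across the scalings the rises of the list numbered 12 after median-centring and 19 after cyclic loess. Of the 12 measured genes named atg 5 rose (41.7%) and 2 fell, with a median of 0.09. epg-2, an adaptor for cargo, read 6.74, 6.48, 6.74, 6.78 and 6.81 in L4 and 7.75, 7.59, 7.89, 7.59 and 7.58 in lethargus. All lethargus arrays lay above all L4 arrays, 1.96-fold (adjusted p = 1.40e-06). The lipid transfer gene atg-2 rose 1.63-fold (adjusted p = 8.21e-05), and atg-10, for a conjugating enzyme, fell 1.81-fold (adjusted p = 0.000542). The difference between both lists was not tested. Of the 19 subunit genes of the V-ATPase, the proton pump that acidifies the lysosome, 0 were called by limma (median -0.04, 0.03 after cyclic loess, and -0.21 over the 6 genes left without probe sets that share probes). At an unadjusted p of 0.05 or less, 1 was higher and 1 lower, and without lethargus replicate 1 2 rose and 0 fell.

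More genes for lysosomal proteases of the cathepsin type fell than rose. Of 26 genes 1 rose and 10 fell (median -0.17). The falls numbered 11 after median-centring, 7 after cyclic loess and 7 with the hybridisation controls as scale. cpr-4, a secreted cathepsin B gene of the intestine, was among the brightest genes of the arrays and read 13.13, 13.003, 13.05, 13.08 and 13.07 in L4 and 12.10, 12.08, 12.11, 12.29 and 12.31 in lethargus. The values were tight in both stages and did not overlap, a 1.85-fold fall (adjusted p = 6.68e-07). The falls of its relatives were 1.66-fold for cpr-5, 1.9-fold for cpr-8 and 1.76-fold for cpr-9. In the list of protease inhibitors 1 of 13 genes rose and 4 fell. mlt-11, which is needed for molting, fell 17.5-fold (adjusted p = 5.35e-08). swm-1, an inhibitor known for blocking early sperm activation in males, read 10.90, 11.05, 10.85, 11.001 and 11.01 in L4 and 9.51, 9.94, 9.48, 9.78 and 9.97 in lethargus and fell 2.34-fold (adjusted p = 1.05e-06). The coelomocytes, scavenger cells rich in lysosomes, had a summed marker level of 9.05 to 9.31 in L4 and 8.37 to 8.72 in lethargus, 3 of 3 measured markers fell, and their part was not tested.

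Histone genes fell. Of 26 measured histone genes 0 rose (0 unadjusted) and 16 fell (median -0.44). Most are read from probe sets that match several histone genes, and of the 8 with probes of their own 5 fell. his-70, a gene of the H3.3 type with its own probe set, read 8.63, 8.96, 8.95, 8.73 and 8.62 in L4 and 7.92, 7.43, 7.29, 7.19 and 7.03 in lethargus. Lethargus replicate 1 was the highest of its stage but stayed below L4, and the fall was 2.66-fold (adjusted p = 9.85e-06). Of 36 replication genes 0 rose (6 unadjusted) and 6 fell, close to the share of all genes, with the ribonucleotide reductase gene rnr-1 down 1.46-fold (adjusted p = 0.000266).

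The shares of cell cycle and meiotic genes that fell were under the 15.6% of all genes. Their shares that rose lay on both sides of the 16.0% of all genes. Of 65 mitosis and cell cycle genes 14 rose (21.5%) and 4 fell (6.15%). Of 47 meiotic chromosome genes 7 rose (14.9%) and 0 fell (1 unadjusted). The mitotic rises numbered 4 of 39 without probe sets that share probes and 20 of 65 without lethargus replicate 1. cdc-25.3, a phosphatase gene of the CDC25 family, read 4.12, 4.52, 4.17, 3.79 and 4.00 in L4 and 6.44, 7.53, 7.21, 7.94 and 7.72 in lethargus. It was not above background in L4 and rose at least 3.49-fold (adjusted p = 6.67e-09). The B cyclin genes cyb-2.1 and cyb-2.2, which share probes, rose 3.34-fold and 2.69-fold. cyd-1, the D cyclin of the G1 phase, fell at least 2.45-fold (adjusted p = 3.09e-06). In meiosis lab-1, which protects cohesion between sister chromatids, rose 2.27-fold (adjusted p = 1.06e-05).

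Germ granule and small RNA genes included changes of opposite sign. P granules hold RNA and Argonaute proteins at germ cell nuclei and in the early embryo. Of 67 genes 10 rose (14.9%) and 6 fell (8.96%), against 16.0% and 15.6% of all genes. meg-1, for a P granule protein supplied by the mother, read 4.11, 4.34, 4.79, 4.46 and 4.73 in L4 and 7.47, 8.21, 7.9995, 8.68 and 8.30 in lethargus and rose at least 5.94-fold (adjusted p = 1.74e-10). meg-3, of the same family, rose at least 1.48-fold. The Argonaute gene wago-10 read 9.25, 9.95, 9.95, 9.49 and 9.36 in L4 and 8.24, 7.55, 7.46, 7.49 and 7.57 in lethargus. Lethargus replicate 1 stood highest of its stage but under every L4 array, and the fall was 3.83-fold (adjusted p = 1.36e-07). In the list of Mediator, TFIID and RNA polymerase II 7 of 49 genes rose and 4 fell. The TFIID complex starts transcription, and its subunit gene taf-7.1 had the largest difference of its list. It read 6.36, 6.22, 6.94, 6.35 and 6.55 in L4 and 9.31, 9.52, 9.63, 9.18 and 9.55 in lethargus and rose 7.74-fold (adjusted p = 3.50e-11). The summed level of the germline markers was 13.96 to 14.39 in L4 and 13.99 to 14.33 in lethargus. That of the gonadal sheath and spermatheca markers was 10.93 to 11.06 in L4 and 11.27 to 11.46 in lethargus. Of these 7 sheath and spermatheca markers 2 rose and 0 fell (0 unadjusted), and their median difference was -0.06.

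Sperm genes parted by name. Major sperm proteins, the cytoskeleton of the crawling sperm, had 2 of 23 genes up and 0 down by limma, and 9 higher and 0 lower at an unadjusted p of 0.05 or less. Their median was 0.07, and after cyclic loess 7 rose. Of these genes 1 has a probe set that shares no probes. Of the 58 other sperm genes 21 rose and 14 fell. The list was then divided by gene name, after its values were seen. Of the 29 spe genes, named for mutants with defective sperm, 2 rose and 13 fell (median -0.37). Of the 8 ssp genes, small proteins that resemble part of the major sperm protein, 7 rose and 0 fell (1 unadjusted, median 0.75). Of the 6 sss and ssq genes 6 rose and 0 fell (0 unadjusted, median 0.64). spe-44, which regulates transcription in spermatogenesis, read 9.12, 9.58, 9.87, 9.45 and 9.32 in L4 and 8.10, 8.23, 7.74, 7.99 and 8.23 in lethargus. It fell 2.66-fold without overlap (adjusted p = 5.85e-07). fer-1, for a ferlin needed when sperm organelles fuse with the membrane, fell 2.75-fold (adjusted p = 4.88e-07). ssp-19 read 6.53, 6.95, 7.49, 7.14 and 6.69 in L4 and 8.18, 8.50, 8.61, 8.73 and 8.50 in lethargus and was higher on every lethargus array, 2.92-fold (adjusted p = 2.42e-06). nspd-9, of a small sperm-specific family, rose 2.25-fold (adjusted p = 0.000163). The difference between these name classes was not tested.

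**Figure D3:**
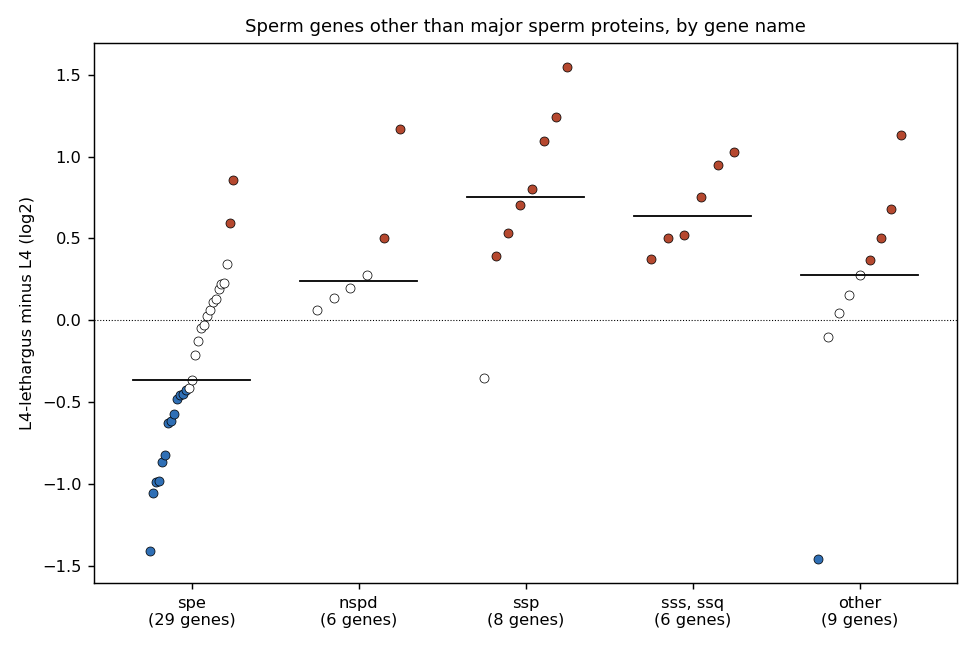
Difference between lethargus and L4 (log2) of the 58 sperm genes other than the major sperm proteins, in 5 sets by gene name, with red for genes that rose, blue for genes that fell, white for genes not called and a bar at each median. The spe set has its median at -0.37 and the ssp set at 0.75.

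**Figure D4:**
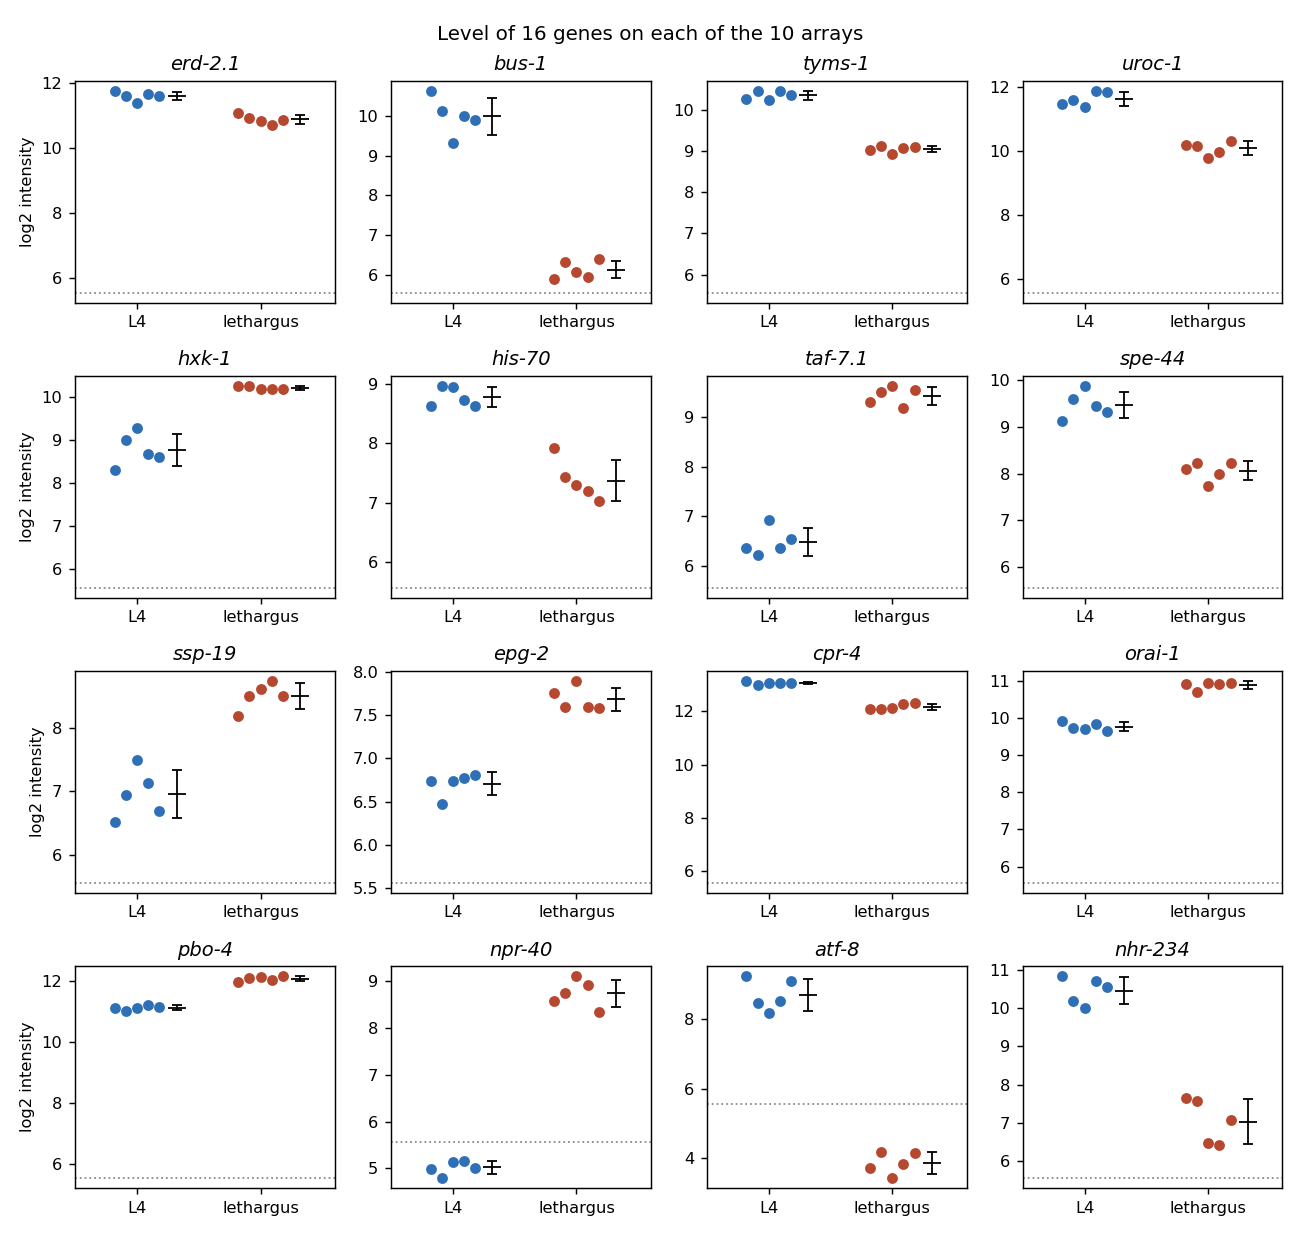
Level (log2 intensity) of 16 genes on each L4 (blue) and lethargus (red) array, with the mean and SD of 5 arrays beside the points and a dotted line at the background bound of 5.56. In each panel the 2 sets of points do not overlap, and npr-40 in L4 and atf-8 in lethargus lie under the bound.

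Defence and gut genes held some of the largest single changes with no common direction. Of 34 lysozyme and saposin-like genes 5 rose and 10 fell. spp-13 read 12.08, 12.19, 11.54, 12.26 and 12.20 in L4 and 9.51, 7.98, 5.92, 5.65 and 7.56 in lethargus and fell 26.5-fold (adjusted p = 4.32e-06), while spp-31 rose 5.6-fold (adjusted p = 4.54e-09). Of 220 C-type lectin genes, secreted proteins that often bind sugars, 94 were above background, 20 rose (9.09%) and 29 fell (13.2%). clec-180 read 11.75, 11.59, 11.24, 11.67 and 11.65 in L4 and 7.20, 7.23, 6.14, 5.97 and 7.09 in lethargus. Its stages stood far apart, with a fall of 28.9-fold (adjusted p = 6.50e-11). clec-174 and clec-91 rose 9.98-fold and 6.6-fold, and in the list of acid phosphatases and galectins, where 13 of 51 genes rose and 9 fell, lec-7 rose 7.66-fold (adjusted p = 9.48e-09). Of 40 transthyretin-like genes 14 rose and 10 fell, with ttr-32 up 5.91-fold and ttr-28 down at least 4.86-fold.

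Enzymes and transporters that handle foreign compounds were called in both directions. Of 74 cytochrome P450 genes 22 rose (29.7%) and 15 fell, and of 64 UDP-glucuronosyl transferase genes, which attach sugars to small molecules, 21 rose (32.8%) and 13 fell. cyp-32A1 rose at least 11.17-fold (adjusted p = 3.97e-12) and cyp-42A1 fell 10.8-fold (adjusted p = 6.42e-08). ugt-43 read 5.12, 4.71, 5.56, 5.78 and 5.75 in L4 and 9.28, 8.91, 9.14, 8.78 and 8.96 in lethargus. L4 was not above background, and the rise was at least 10.9-fold (adjusted p = 1.94e-10). Of 45 glutathione S-transferase genes 10 rose and 10 fell, with gstk-2 up 2.93-fold and gsto-1 down 2.94-fold. In the antioxidant list 5 of 37 genes rose and 10 fell, or 6 without L4 replicate 4 and 4 with the hybridisation controls as scale. In it gpx-5, for a glutathione peroxidase, and trx-3, for a thioredoxin, rose 5.35-fold (adjusted p = 3.12e-08) and 4.81-fold (adjusted p = 1.50e-06), and the methionine sulfoxide reductase gene msra-1 fell 1.94-fold (adjusted p = 8.81e-06).

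Of 169 solute and water transporter genes 39 rose and 38 fell. catp-3, for a P-type cation pump, rose 9.42-fold (adjusted p = 7.61e-07). The peptide transporter gene pept-2 read 7.60, 7.53, 7.63, 8.07 and 7.64 in L4 and 9.64, 9.77, 10.11, 9.81 and 9.91 in lethargus and rose 4.45-fold (adjusted p = 1.67e-10) without overlap. In the ABC transporter list 10 of 50 genes rose (20.0%) and 8 fell (16.0%), against 16.0% and 15.6% of all genes. pgp-14, an ABC transporter gene of the P-glycoprotein class, rose at least 7.16-fold (adjusted p = 5.38e-07), and pgp-9 rose 2.75-fold. The pharyngeal muscle markers, of which 3 of 6 rose and 0 fell (0 unadjusted), had a summed level of 10.30 to 11.35 in L4 and 11.14 to 12.20 in lethargus. The part of the pharynx in these rises was not tested.

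Chemoreceptor genes lay low on these arrays, and most were not above background. Of 1278 measured 36 were above background, 50 rose (3.91%) and 28 fell (2.19%). More genes were called than lay above background, so that most of these calls were for genes not above background in either stage. Of 101 neuropeptide receptor genes 45 were above background, 17 rose (16.8%, against 16.0% of all genes) and 4 fell (3.96%). npr-40, of this class, read 4.997, 4.80, 5.13, 5.17 and 5.02 in L4 and 8.59, 8.75, 9.11, 8.93 and 8.34 in lethargus. It was not above background in L4 and rose at least 9.05-fold (adjusted p = 1.91e-12). trhr-1, the worm's thyrotropin-releasing hormone receptor, rose 2.66-fold (adjusted p = 6.44e-05). By limma 0 of the 12 pan-neuronal markers were called, 1 was higher at an unadjusted p of 0.05 or less, and their summed level was 13.63 to 13.84 in L4 and 13.72 to 13.86 in lethargus.

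A pair of ligand-gated channel genes moved apart. lgc-22 read 10.75, 10.56, 10.67, 11.22 and 11.07 in L4 and 8.36, 6.60, 5.55, 6.06 and 6.47 in lethargus and fell 19-fold (adjusted p = 4.18e-07). lgc-21 read 5.60, 5.79, 7.26, 6.90 and 6.83 in L4 and 10.53, 10.24, 10.33, 9.48 and 10.28 in lethargus and rose 13-fold (adjusted p = 3.26e-08). For both genes the stages stood apart on every array, and over their list 13 of 91 rose and 15 fell. Of 66 potassium channel genes 43 were above background, 9 rose (13.6%) and 12 fell (18.2%, or 7 genes without L4 replicate 5). Among them the voltage-gated kvs-2 rose 3.89-fold (adjusted p = 7.36e-09). Of 29 DEG/ENaC sodium channel genes 17 were above background, 6 rose and 7 fell. acd-1, known from glia, fell 3.65-fold (adjusted p = 1.94e-06) and del-5 rose 2.37-fold (adjusted p = 8.28e-07).

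Signalling genes downstream of receptors were called in both directions. Of 95 G protein and cyclic nucleotide genes 54 were above background, 18 rose (18.9%, against 16.0% of all genes) and 7 fell. RGS proteins end G protein signals, and rgs-9, rgs-10 and rgs-7 rose at least 1.98-fold, at least 2.06-fold and 1.89-fold. Of 25 innexin genes, which build gap junctions, 9 rose (36%) and 2 fell. inx-14 and inx-22, which couple the germ line to its sheath, rose 1.72-fold (adjusted p = 7.09e-05) and 1.76-fold (adjusted p = 0.000111). In the Wnt and TGF-beta list 10 of 40 rose and 9 fell. The Wnt ligand genes mom-2 and cwn-2 went opposite ways, up 2.61-fold and down 3.26-fold, and the TGF-beta ligand gene unc-129 fell 2.12-fold. In the vulval and uterine list, where 8 of 34 genes rose and 7 fell, eff-1, which fuses cells, fell 3.17-fold (adjusted p = 3.32e-06) and lin-29, a zinc finger gene of the larva-to-adult switch, fell 2.56-fold (adjusted p = 0.000414).

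Nuclear hormone receptors rose more often than they fell. The worm has a large family of these ligand-controlled transcription factors, most of them without a known ligand. Of 259 measured 158 were above background. Of the 259, 73 rose (28.2%, against 16.0% of all genes), 17 fell (6.56%) and 169 were not called, with a median of 0.15. Rises numbered 62 after median-centring and 76 with the hybridisation controls as scale. Its members with the largest differences, nhr-234 and nhr-235, fell. nhr-234 read 10.82, 10.19, 9.99, 10.70 and 10.56 in L4 and 7.64, 7.56, 6.46, 6.41 and 7.08 in lethargus. The stages did not overlap and the fall was 10.7-fold (adjusted p = 3.50e-08). nhr-235 fell 8.89-fold (adjusted p = 1.76e-07), and nhr-84 rose 2.96-fold (adjusted p = 8.91e-08).

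Other transcription factor families had 14 of 100 homeobox genes up and 8 down, and 12 of 78 GATA, T-box, bHLH and bZIP genes up and 9 down. The bZIP gene atf-8 read 9.24, 8.46, 8.18, 8.53 and 9.11 in L4 and 3.71, 4.17, 3.42, 3.81 and 4.15 in lethargus. Lethargus was not above background, and the fall was at least 8.8-fold (adjusted p = 1.21e-11). atf-2, another bZIP gene, fell at least 6.14-fold (adjusted p = 6.33e-10). ceh-60, a homeobox gene that acts in the intestine on yolk genes, rose 2.27-fold (adjusted p = 2.58e-07), and pal-1, the caudal homologue, rose 2.52-fold (adjusted p = 1.46e-05). Of the 73 histone-modifying enzyme genes 9 rose (12.3%) and 10 fell (13.7%). Leaving out any of L4 replicates 1 and 5 and lethargus replicates 2 to 4 left 5 rises, against 14 without lethargus replicate 1. The class II deacetylase gene hda-5 rose 2.18-fold (adjusted p = 5.11e-06) and dot-1.3, of the DOT1 methyltransferase family, fell 3.41-fold (adjusted p = 2.73e-08).

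Well-expressed genes were those with a mean over the 15 arrays at or above the 75th percentile of all genes, 9.57. The Adult arrays enter this level, so a gene that was low in L4 could pass through lethargus and Adult, and one that was bright in L4 and fell could fail. Of 4280 such genes 677 rose (15.8%) and 748 fell (17.5%), with a median fold of 1.56 for rises and 1.34 for falls. Folds of 1.5 to 3 made up 275 rises (6.43%) and 184 falls (4.30%). Folds of 3 or more made up 110 rises and 32 falls, and under 1.2-fold there were 6 rises and 78 falls. With the level taken over the 10 arrays of both stages (cut at 9.56, a rule chosen after seeing the data), 636 genes rose and 836 fell, folds of 1.5 to 3 made up 271 rises and 222 falls, and folds of 3 or more made up 98 rises and 80 falls. By that rule the median fold was 1.58 for rises and 1.37 for falls. The difference in fold between rises and falls was not tested. By the first rule the split of calls depended on the scaling, with 621 rises and 890 falls after median-centring, 796 and 551 after cyclic loess, and 674 and 400 with the hybridisation controls as scale. It was 734 rises and 701 falls without lethargus replicate 1. In amino acid breakdown 18 of 36 well-expressed genes fell, 8 of them by a moderate fold, and in the cathepsin-like proteases 10 of 18 fell, 6 of them moderately.

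**Figure D5:**
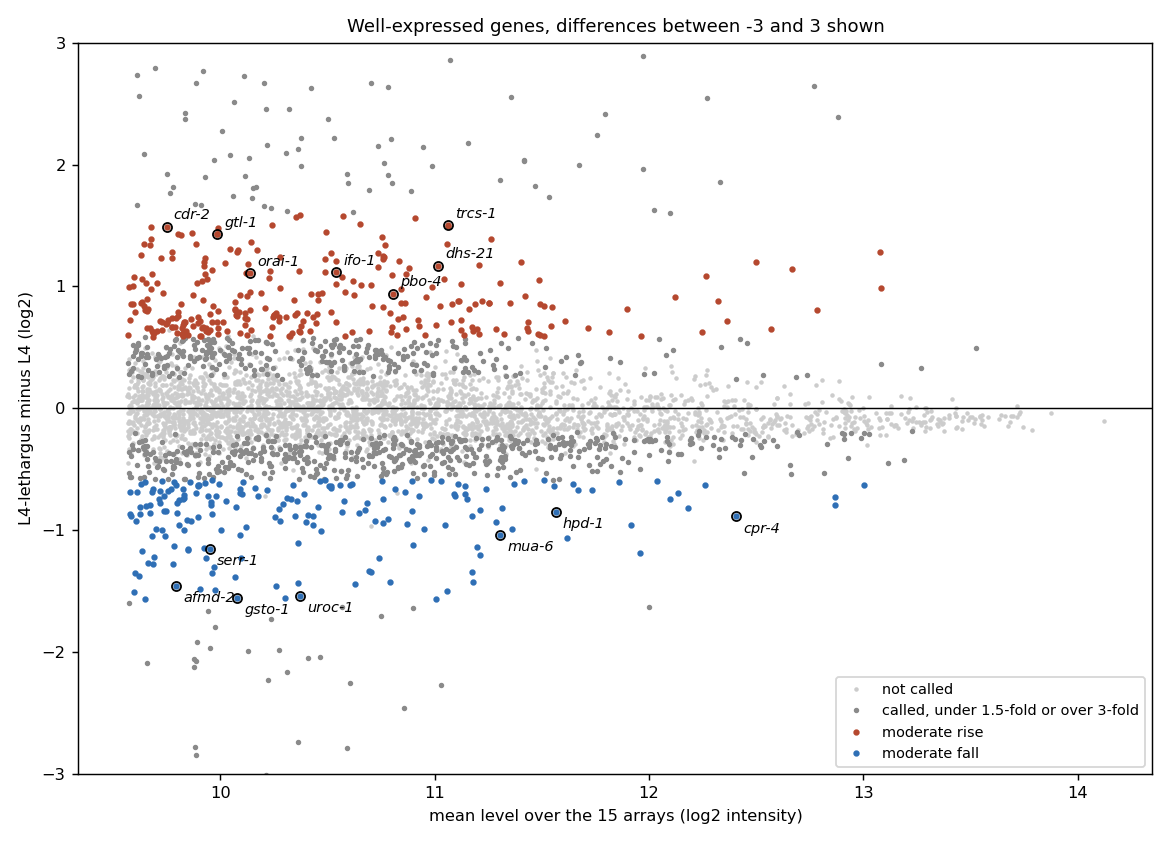
Difference between lethargus and L4 (log2) against the mean level over the 15 arrays (log2 intensity) for the 4280 well-expressed genes, with the 275 moderate rises in red, the 184 moderate falls in blue and some genes named in the text circled. Differences beyond 3 are not drawn, and toward the right the grey cloud of genes that were not called lies slightly below 0.

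The moderate rises with the largest moderated statistics had no common list. orai-1, the calcium channel of the plasma membrane that opens when stores are empty, read 9.92, 9.73, 9.71, 9.83 and 9.65 in L4 and 10.90, 10.69, 10.93, 10.92 and 10.95 in lethargus. Every lethargus array lay above every L4 array, and the rise was 2.16-fold (adjusted p = 1.06e-08). gtl-1, a TRPM cation channel gene of the intestine, read 9.73, 9.24, 9.08, 9.48 and 9.42 in L4 and 10.71, 10.77, 10.78, 10.92 and 10.91 in lethargus and rose 2.7-fold (adjusted p = 6.01e-08). pbo-4, the sodium-proton exchanger by which the hind gut signals to muscle during defecation, read 11.11, 11.01, 11.11, 11.22 and 11.13 in L4 and 11.95, 12.08, 12.11, 12.01 and 12.14 in lethargus. The values of each stage lay close together and did not overlap, and the rise was 1.92-fold (adjusted p = 7.52e-08). ifo-1, which organises the filaments under the intestinal surface, read 10.55, 10.67, 10.30, 10.68 and 10.50 in L4 and 11.73, 11.68, 11.63, 11.53 and 11.72 in lethargus and rose 2.17-fold (adjusted p = 1.05e-07). dhs-21, for a reductase of xylulose, rose 2.25-fold (adjusted p = 1.75e-08), and cdr-2, of a cadmium-responsive family, rose 2.81-fold (adjusted p = 1.69e-07). Others of these rises were trcs-1 (2.83-fold), ttr-17 (1.85-fold), the esterase gene nte-1 (1.93-fold) and the immunoglobulin-domain gene zig-9 (2.36-fold).

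The moderate falls with the largest moderated statistics included the metabolic genes uroc-1, afmd-2, tyms-1, pcyt-1, hpd-1 and suox-1 described above. The tetraspanin gene tsp-10, for a membrane protein, led them and read 11.63, 11.45, 11.43, 11.38 and 11.21 in L4 and 9.97, 10.10, 9.87, 9.92 and 9.95 in lethargus. It fell 2.75-fold (adjusted p = 1.72e-09) without overlap. serr-1 read 10.82, 10.66, 10.42, 10.62 and 10.68 in L4 and 9.48, 9.46, 9.42, 9.42 and 9.67 in lethargus and fell 2.22-fold (adjusted p = 5.22e-08), and the RING finger gene rnf-145 fell 2.24-fold (adjusted p = 8.11e-07). In the RAB and ARL list of small GTPases 1 of 26 genes rose (3.85%) and 4 fell (15.4%, against 15.6% of all genes). In that list rab-6.2, which acts in transport at the Golgi and was not among the well-expressed genes, fell 2.61-fold (adjusted p = 1.67e-07).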

How the data were processed

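The authors deposited log2 expression values from the Affymetrix C. elegans Genome Array, made with RMA per the submitters' processing notes, which give no version. Per the labels' protocols, RNA of integrity number over 5 went through NuGEN Ovation V2 amplification, and 1 sample per stage was left out. RMA makes arrays alike, and a change in total RNA is lost. The sources used here do not give the genome build of the annotation.

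Of 22625 probe sets 77 controls were left out. Of the 22548 others 20766 named 1 gene, 887 several and 895 none, 20701 were matched by gene id, and 17118 genes resulted. The suffixes _s_at (5484) and _x_at (1227) mark probes shared with other transcripts.

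Values were fitted with limma 3.58.1 (R 4.3.3) on 15 arrays with a mean per stage. The p-values were doubled (multiplied by 2), as the submitters did, then adjusted by Benjamini-Hochberg over 22548 probe sets. The design names R/maanova, which was not run here. Every adjusted p is from limma, and "unadjusted" means its own p, not doubled, of 0.05 or less. Where the mean of a stage lay below 5.56, a bound from 32 unspiked controls (their 95th percentile), that stage was not above background and folds are written as at least. This bound was set after seeing the data.

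The gene lists (71, with 12 marker lists) were chosen with earlier results of these data known, and 4 patterns of gene names were corrected after values were seen. The rule for named genes took at most 4 called members per list with the largest difference and no overlap, the 15 rises and 15 falls of well-expressed genes by moderated t, and the 10 largest rises and falls outside the collagen, yolk and oocyte classes. The text gives a part of these, picked after their values were seen. Alternatives were 3 other scalings, a filter on dim probe sets, p-values not doubled, the 10 arrays alone, a trended robust prior, leaving out each array, array weights, a replicate block, leaving out shared probes and 2 other rules for several probe sets, and, after seeing the data, scaling to the hybridisation controls and a level for well-expressed genes over 10 arrays. The fit was tested on simulated data. Figures used matplotlib 3.10.9.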

Additional observations from a re-analysis of the deposited data

Results flagged for a closer look

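Each of the 166 genes named was checked for an array far from the other 4 of its stage, 332 groups in all, of which 24 held such an array. Chance flags about 1 in 20 groups, and the causes were not tested. Lethargus replicate 1 held 5 of them and L4 replicate 3 held 4. In L4 replicate 1 they were fbxc-50 at 8.09 (below the others at 8.45 to 8.59) and fer-1 at 7.98 (below the others at 8.27 to 8.38). In L4 replicate 2 they were cdr-2 at 9.31 (below the others at 9.71 to 9.82), epg-2 at 6.48 (below the others at 6.74 to 6.81) and gst-42 at 10.88 (below the others at 11.20 to 11.30). In L4 replicate 3 they were atf-2 at 7.29 (below the others at 8.33 to 8.51), glna-2 at 7.98 (below the others at 8.39 to 8.52) and rab-6.2 at 8.92 (below the others at 9.26 to 9.40). In L4 replicate 3 there was also spp-13 at 11.54 (below the others at 12.08 to 12.26). In L4 replicate 4 it was pept-2 at 8.07 (above the others at 7.53 to 7.64). In lethargus replicate 1 they were cbs-2 at 7.78 (above the others at 7.32 to 7.44), cysl-2 at 8.08 (above the others at 7.64 to 7.75) and ifa-4 at 9.07 (below the others at 9.53 to 9.64). In lethargus replicate 1 there was also rgs-9 at 5.65 (below the others at 6.59 to 6.91) and wago-10 at 8.24 (above the others at 7.46 to 7.57). In lethargus replicate 2 they were cwn-2 at 6.12 (below the others at 6.68 to 6.87) and orai-1 at 10.69 (below the others at 10.90 to 10.95). In lethargus replicate 3 it was hpd-1 at 11.11 (below the others at 11.35 to 11.41). In lethargus replicate 4 they were daf-10 at 5.18 (below the others at 6.41 to 6.78), lgc-21 at 9.48 (below the others at 10.24 to 10.53) and memb-1 at 7.30 (below the others at 7.57 to 7.64). In lethargus replicate 4 there was also pars-1 at 10.78 (below the others at 11.08 to 11.20). In lethargus replicate 5 they were atg-2 at 7.46 (above the others at 7.03 to 7.13) and serr-1 at 9.67 (above the others at 9.42 to 9.48).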

How the results depend on the processing

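Over 28 alternatives the counts of rises and falls stayed within 1.5 times of the main counts. Leaving out each array gave 2423 to 3033 rises, 2315 to 3101 falls, 256 to 308 moderate rises and 168 to 206 moderate falls. The 3033 rises and 3101 falls were both the counts without Adult replicate 2, the array with the lowest array weight (0.18). Without probe sets that share probes, moderate rises numbered 160. Scaling to the hybridisation controls, chosen after seeing the data, raised the median difference of all genes to 0.07 and gave 2831 rises and 1960 falls. The replicate numbers did not pair the arrays (correlations of same-numbered deviations from -0.24 to 0.05), and with the replicate number as a block 2561 genes rose and 2451 fell. With the level of well-expressed genes taken over the 10 arrays of both stages there were 271 moderate rises and 222 moderate falls. Medians of the lists were compared with the combined SD of both stages' arrays, a choice made after 189 of 1988 medians had moved against the SD of the lethargus arrays alone. Against the combined SD 72 moved. After median-centring the moved medians were 0.031 for tubulins, -0.18 for aminoacyl-tRNA synthetases and -0.25 for proteasome subunits. After a second quantile normalization the moved median was -0.17 for proteasome subunits. After cyclic loess the moved medians were -0.12 for translation initiation and elongation factors, -0.095 for aminoacyl-tRNA synthetases, -0.090 for mitochondrial ribosomal proteins, -0.13 for proteasome subunits, -0.022 for antioxidant, metal and sulfur stress and -0.11 for cathepsin-like proteases. Without dim probe sets, where fewer genes were tested the moved medians were -0.22 for SCP-like and fungus-induced related secreted proteins, 0.36 for hemidesmosome and intermediate filament, -0.044 for tubulins, -0.015 for cilia and intraflagellar transport, 0.40 for lipases and -0.30 for amino acid breakdown. They were also -0.29 for cathepsin-like proteases, -0.16 for lysozymes and saposin-like, -0.12 for C-type lectins, 0.32 for cytochrome P450, 0.26 for UDP-glucuronosyl transferases and 0.073 for ABC transporters. Further values were -0.13 for potassium channels, -0.13 for ligand-gated ion channels, 0.16 for DEG/ENaC channels, -0.046 for neuropeptide receptors, 0.66 for chemoreceptors and 0.23 for vulva, uterus and anchor cell development. The last was 0.29 for nuclear hormone receptors. Without shared-probe probe sets, where fewer genes were read the moved medians were -0.21 for V-ATPase subunits, -0.089 for actin cytoskeleton, 0.19 for tubulins, 0.20 for major sperm proteins, -0.26 for proteasome subunits and -0.11 for ubiquitin-conjugating enzymes and cullins. To these were added 0.31 for autophagy, -0.30 for TCA and glyoxylate cycle, -0.26 for amino acid breakdown, -0.15 for antioxidant, metal and sulfur stress, -0.093 for cathepsin-like proteases and -0.054 for ABC transporters. With the mean of the probe sets the moved median was -0.11 for ubiquitin-conjugating enzymes and cullins. With the hybridisation controls as scale the moved medians were -0.069 for N-glycosylation and oligosaccharyl transferase, 0.14 for tubulins, -0.12 for translation initiation and elongation factors, -0.073 for aminoacyl-tRNA synthetases, -0.079 for mitochondrial ribosomal proteins and -0.13 for proteasome subunits. They were also 0.035 for ubiquitin-conjugating enzymes and cullins, 0.32 for autophagy, -0.12 for glycolysis and gluconeogenesis, -0.17 for TCA and glyoxylate cycle, -0.13 for amino acid breakdown and -0.017 for antioxidant, metal and sulfur stress. Further values were -0.10 for cathepsin-like proteases, 0.080 for ABC transporters, 0.070 for ligand-gated ion channels, 0.085 for DEG/ENaC channels, 0.11 for neuropeptide receptors and 0.081 for chemoreceptors. The rest were 0.11 for G proteins and cyclic nucleotide signalling, 0.20 for Wnt and TGF-beta signalling, 0.053 for vulva, uterus and anchor cell development, 0.21 for nuclear hormone receptors, 0.14 for homeobox and 0.13 for GATA, T-box, bHLH and bZIP factors. From the probe set with the largest spread the moved medians were 0.39 for hemidesmosome and intermediate filament, 0.13 for actin cytoskeleton, -0.11 for ubiquitin-conjugating enzymes and cullins and -0.30 for amino acid breakdown. Leaving out each array gave -0.14 to -0.054 for antioxidant, metal and sulfur stress. Leaving out each array gave 0.031 to 0.11 for tubulins. The difference of mua-3 was 0.71 (the opposite sign, adjusted p = 0.00485) without shared-probe probe sets. The difference of par-3 was 0.26 (adjusted p = 0.0759) without shared-probe probe sets. The difference of mua-3 was -0.31 (adjusted p = 0.056) with the mean of its probe sets. The difference of cnx-1 was -0.24 (adjusted p = 0.0768) with the hybridisation controls as scale. The difference of ife-2 was -0.47 (adjusted p = 0.0631) with the hybridisation controls as scale. Falls with the hybridisation controls as scale numbered 8 in the UDP-glucuronosyl transferases, 17 in the chemoreceptors, 7 in fatty acid oxidation, 5 in fatty acid synthesis, 9 in the ligand-gated channels, 9 in the other sperm genes and 6 in the potassium channels. With array weights 18 germ granule, 19 histone-modifying and 23 mitosis genes rose, and 21 fatty acid oxidation, 20 mitochondrial ribosomal, 21 proteasome and 14 GATA-list genes fell. For moved medians whose setting does not itself change the genes read, the cause was not tested. Each array's signal over background limits dim lists, and lists such as chemoreceptors were mostly not above background.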

Other observations

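The counts of further lists stand against 16.0% up and 15.6% down over all genes. Of 54 cilia and intraflagellar transport genes, which build the sensory endings of neurons, 32 were above background, 7 rose and 3 fell. daf-10, a transport subunit gene, was 3.91, 3.76, 4.18, 4.29 and 4.59 in L4 and 6.41, 6.78, 6.46, 5.18 and 6.60 in lethargus, so that it was not above background in L4, and it rose at least 1.65-fold (adjusted p = 3.47e-06). xbx-4 rose 2.44-fold (adjusted p = 2.42e-07) and dyf-4 fell 6.44-fold (adjusted p = 6.21e-07). Of 16 tubulin genes 1 rose, the beta-tubulin gene tbb-6 (2.5-fold, adjusted p = 1.56e-05), and 0 fell by limma (1 unadjusted). Of 30 actin cytoskeleton genes 2 rose and 6 fell. Of 17 tetraspanin genes 3 rose, among them tsp-15, which is needed for an intact cuticle (3-fold, adjusted p = 2.08e-06), and 6 fell.

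Genes for adaptors that choose proteins for ubiquitin tagging were called in both directions. Of 171 fbxa genes 24 rose and 30 fell, of 139 fbxb and fbxc genes 8 and 3, and of 85 BATH and MATH genes 12 and 10. Above background were 95 of the fbxa genes, 17 of the fbxb and fbxc genes and 48 of the BATH and MATH genes. fbxa-190 fell 5.47-fold (adjusted p = 1.16e-06), and fbxc-50 rose 4.15-fold (adjusted p = 2.72e-10). Of 19 Skp1-related genes 4 rose and 2 fell, with skr-11 up at least 3.28-fold, and of 13 conjugating enzyme and cullin genes 1 rose and 2 fell. Of 34 short-chain dehydrogenase genes 6 rose and 9 fell, and dhs-16 fell at least 4.32-fold (adjusted p = 7.67e-08). Of 38 SCP-like and fungus-induced related secreted protein genes 18 were above background, 4 rose and 5 fell, and scl-5 fell 4.12-fold (adjusted p = 1.76e-05). Of 42 nuclear pore and transport genes 1 rose and 4 fell.

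Outside the lists, dct-5 rose at least 65.3-fold (adjusted p = 2.91e-17), ule-5 at least 29.8-fold (adjusted p = 4.33e-11), stha-3 at least 43.3-fold (adjusted p = 1.11e-11) and idpp-12 at least 46.6-fold (adjusted p = 5.16e-12). Of the 16 measured genes named idpp, 11 rose and 3 fell, and of the 25 bestrophin genes, of an anion channel family, 6 rose and 12 fell. The bestrophins are not outside the lists, since members were also counted among the solute and water transporters above. These name classes were picked after their values were seen.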
